A study of Mus musculus with 84 samples.

Results

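8 genes of the glial extracellular matrix were followed across sorted astrocytes. They were the lecticans *Ncan* (neurocan), *Bcan* (brevican), *Vcan* (versican) and *Acan* (aggrecan), the transmembrane proteoglycan *Cspg5* (neuroglycan C), the tenascins *Tnc* and *Tnr* and the receptor phosphatase *Ptprz1*. They were chosen as a list of gene names, matched through Ensembl identifiers, and all 8 were found among the 48526 genes of the EAE table and among the 25773 genes of the subtype table.

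Experimental autoimmune encephalomyelitis (EAE) is a mouse model of multiple sclerosis in which T cells are raised against a myelin peptide. Female C57BL/6 mice, 10 weeks old, were immunized with a peptide of myelin oligodendrocyte glycoprotein in complete Freund's adjuvant and received pertussis toxin, and were taken at score 1 (E1, limp tail), at score 4 (E4, complete paralysis of the hind legs) or in the chronic phase (Ech). Control mice (C) were not immunized, so adjuvant and toxin were absent from the controls and their effects cannot be told apart from those of disease. Astrocytes were sorted as CD11Bneg CD45neg ACSApos events, where ACSA is an epitope of ATP1B2, and the hindbrain (cerebellum and brain stem) was split by surface GLAST (SLC1A3) into GLASTneg and GLASTpos cells, while the spinal cord gave GLASTneg cells only. Controls had n = 5 in each population, spinal cord GLASTneg had n = 5, 6 and 6 at E1, E4 and Ech, hindbrain GLASTneg had n = 6 at each stage, and hindbrain GLASTpos had n = 6, 6 and 4. A further experiment held 5 populations of untreated wildtype FVB/N mice (n = 3 each, age not given in the sources used here) and cultured neonatal C57BL/6 astrocytes (n = 3). A library could hold the pooled RNA of 2 mice, and the EAE titles carry a number in brackets that recurs between populations of a stage. What that number stands for is not stated, so libraries of different populations may share animals, and the p-values measure the spread between libraries.

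The 66 EAE libraries held 1313682 to 4895220 counts, so that the limit set by 3 counts lay between 0.613 and 2.28 CPM (counts per 1000000 of a library, after TMM scaling of the library sizes), and the FVB/N libraries held 416768 to 1269316 counts. All 10 astrocyte markers listed (among them *Aqp4*, *Aldh1l1*, *Slc1a2* and the gate genes *Slc1a3* and *Atp1b2*) were above 3 counts in at least 1 library of every group, and their summed level was 18274 to 27044 CPM in hindbrain GLASTneg and 18130 to 30927 CPM in hindbrain GLASTpos. In spinal cord GLASTneg the same sum ran from 13071 to 18366 CPM in controls, from 4317 to 22252 CPM at E1, from 2429.6 to 3929.6 CPM at E4 and from 3500 to 5976 CPM at Ech, so the cord libraries of E4 and Ech held less of the markers of their labelled cell type than those of controls. Spinal cord E1 replicate 1 is called cord in its title and hindbrain in another field, and its summed level of 7 *Hox* genes was 233 CPM, against at most 20.2 CPM in any hindbrain library. The FVB/N libraries need a caution given with their values below.

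Lecticans are chondroitin sulphate proteoglycans whose amino-terminal end binds hyaluronan, with link proteins (*Hapln* genes) locking the bond, and whose carboxy-terminal lectin domain binds tenascins. Together they form the loose matrix of the adult central nervous system and the perineuronal nets around some neurons, and after injury chondroitin sulphate proteoglycans of the glial scar hold back axon growth and the maturation of oligodendrocyte precursor cells (OPCs). Neurocan and brevican are made largely by astrocytes, tenascin-R and versican also by cells of the oligodendrocyte lineage, and tenascin-C by immature, Bergmann and reactive astroglia. *Ptprz1* encodes a receptor-type phosphatase whose secreted form, phosphacan, is itself a chondroitin sulphate proteoglycan and binds tenascins, contactins and pleiotrophin.

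The genes lie apart from each other in the GRCm38 genome (GENCODE M21), but each lectican has a link protein gene as a neighbour. *Ncan* (ENSMUSG00000002341) is at chr8:70093085-70120873 on the minus strand with *Hapln4* 2222 bases away, *Bcan* (ENSMUSG00000004892) at chr3:87987531-88000230 on the minus strand with *Hapln2* 21519 bases away, and *Vcan* (ENSMUSG00000021614) at chr13:89655312-89742509 on the minus strand with *Hapln1* 43659 bases away. *Acan* (ENSMUSG00000030607) is at chr7:79053483-79115099 on the plus strand and ends 2 bases from *Hapln3*. *Cspg5* (ENSMUSG00000032482) is at chr9:110243783-110262576 (plus), *Tnc* (ENSMUSG00000028364) at chr4:63959785-64047015 (minus), *Tnr* (ENSMUSG00000015829) at chr1:159523769-159931729 (plus) and *Ptprz1* (ENSMUSG00000068748) at chr6:22875502-23052916 (plus). The libraries read the 3′ ends of transcripts and whether the counting used strand is not given in the sources used here. Reads at the 3′ end of *Tnr* that overlap the antisense gene *Gm38039* may therefore have been counted for either gene or for neither. The same holds for opposite-strand genes that overlap the start of *Vcan* (*Gm4117*) or overlap *Tnc* (*8030451A03Rik*). The splice forms of versican and *Ptprz1* were counted together.

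The promoters of genes that moved in opposite directions in the spinal cord are shown for comparison, namely *Ncan* and *Bcan*, which were lower, and *Vcan*, *Tnr* and *Tnc*, which were higher. Each is the 250 bases before a transcription start in RefSeq (GRCm38.p6), written 5′ to 3′ on the gene's strand, at chr8:70120845-70121094 (minus), chr3:88000357-88000606 (minus), chr13:89742513-89742762 (minus), chr1:159523519-159523768 (plus) and chr4:64047016-64047265 (minus), the last before the first of the 2 starts listed for *Tnc*. Capitals mark matches, on either strand, to 6 motifs: TATAAA (core promoter box), GGGCGG (GC box), CAGCTG (E-box), TTGGCA (part of an NFI site), ACAAAG (SOX) and TTCNNNGAA (STAT). No overlap between the matches of different motifs is present in these runs, and 29 bases of the *Ncan* run lie inside the gene as GENCODE draws it. The *Bcan* run does not adjoin the gene in GENCODE, which starts at position 88000230 on the minus strand. No GENCODE transcript of *Bcan* held the bases checked after its RefSeq start.
Ncan: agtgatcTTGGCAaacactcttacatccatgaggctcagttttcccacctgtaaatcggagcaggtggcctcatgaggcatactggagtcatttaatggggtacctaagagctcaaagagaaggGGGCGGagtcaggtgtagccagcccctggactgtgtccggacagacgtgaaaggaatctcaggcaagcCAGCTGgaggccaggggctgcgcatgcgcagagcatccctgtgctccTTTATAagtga
Bcan: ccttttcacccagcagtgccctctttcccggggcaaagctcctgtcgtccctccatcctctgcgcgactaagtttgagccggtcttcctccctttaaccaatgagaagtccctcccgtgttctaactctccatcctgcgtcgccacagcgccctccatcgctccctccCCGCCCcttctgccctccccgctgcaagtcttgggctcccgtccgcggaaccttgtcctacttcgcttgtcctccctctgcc
Vcan: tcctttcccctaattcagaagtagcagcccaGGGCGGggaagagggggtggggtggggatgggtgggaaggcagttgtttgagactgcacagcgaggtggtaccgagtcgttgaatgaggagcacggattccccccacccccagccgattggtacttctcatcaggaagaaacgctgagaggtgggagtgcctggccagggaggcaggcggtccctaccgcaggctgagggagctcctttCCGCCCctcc
Tnr: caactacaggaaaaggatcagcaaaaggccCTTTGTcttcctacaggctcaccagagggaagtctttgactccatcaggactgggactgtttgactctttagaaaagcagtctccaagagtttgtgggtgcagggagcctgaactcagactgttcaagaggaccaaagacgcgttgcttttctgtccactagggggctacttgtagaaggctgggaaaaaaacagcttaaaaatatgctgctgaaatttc
Tnc: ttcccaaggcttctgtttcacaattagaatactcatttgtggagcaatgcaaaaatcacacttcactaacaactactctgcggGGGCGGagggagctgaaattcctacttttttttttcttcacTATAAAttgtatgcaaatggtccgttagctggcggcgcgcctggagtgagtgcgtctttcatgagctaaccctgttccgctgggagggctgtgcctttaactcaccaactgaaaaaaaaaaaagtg

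Of the genes shown, *Ncan* held matches to 4 of the motifs (the letters of the core promoter box, the GC box, the E-box and the NFI letters), *Bcan* and *Vcan* held the GC box, *Tnr* held the SOX letters and *Tnc* held the letters of the core promoter box and the GC box. The TATAAA match began at -11 from the start in *Ncan*, on the opposite strand, and at -126 in *Tnc*. Among 32851 promoters of the same length the share with a match was 12.4% for the core promoter box, 32.7% for the GC box, 13.0% for the E-box, 12.3% for the NFI letters, 16.5% for the SOX letters and 7.02% for the STAT motif, which matched in none of the promoters found. The base composition differed, with 54.4% G and C in the *Ncan* run, 62% in *Bcan*, 62.4% in *Vcan*, 46.8% in *Tnr* and 44.8% in *Tnc*, against a median of 52.4% over all promoters. A promoter was found in the table for 7 of the 8 genes, all but *Cspg5*. These matches are a description of the letters in the window.

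In spinal cord GLASTneg astrocytes the matrix genes split during EAE. *Ncan* and *Bcan* were lower than in controls at every stage, *Vcan* and *Tnr* were higher at E4 and Ech, and *Tnc* was higher at every stage. *Ptprz1* was lower at E1 and E4, *Cspg5* was lower at E4 only, and neither of them passed the test at Ech. "Changed" means a Benjamini-Hochberg adjusted p below 0.05 over all genes tested in edgeR's quasi-likelihood test (two-sided). At E1 4 of the 8 genes changed, where 10.4% of the 23324 genes tested did, at E4 7 of 8 changed against 23.1% of all genes, and at Ech 5 of 8 against 21.3%. The median log2 fold change of the 8 was -0.10, -0.87 and 0.50 at the 3 stages, against 0 for all genes. The stages share their control libraries.

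*Bcan*, a lectican confined to the central nervous system, fell furthest of the 8 genes. The 5 control libraries of the spinal cord held 952, 798, 710.4, 1049 and 1113 CPM. At E1 the libraries held 286, 719.6, 109, 188 and 189.8 CPM, at E4 35.5 to 131 CPM (median 70.2, n = 6) and at Ech 90.5 to 318 CPM (median 173, n = 6). All E4 and Ech libraries lay below all controls, and at E1 replicate 2 alone reached into the control range. The log2 fold change against control was -1.64 at E1 (SE 0.31, adjusted p = 0.000112), -3.60 at E4 (SE 0.32, adjusted p = 2.63e-15, a fall of 12.2-fold) and -2.32 at Ech (SE 0.30, adjusted p = 2.32e-09). That E1 replicate also had the highest astrocyte marker sum of its group (22252 CPM), and without it the E1 change was -2.26 (adjusted p = 6.88e-08).

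*Ncan*, a lectican of growing and injured tissue, followed the same order with smaller changes. Controls held 159.6, 147, 158, 215 and 212 CPM, E1 libraries 98.8, 93.4, 30.4, 51 and 66.6 CPM, E4 libraries 11.7 to 48.8 CPM (median 27.0) and Ech libraries 47.2 to 141 CPM (median 99.3). No library of any EAE stage reached the lowest control. The log2 fold change was -1.38 at E1 (SE 0.31, adjusted p = 0.00118), -2.61 at E4 (SE 0.32, adjusted p = 3.27e-10) and -0.85 at Ech (SE 0.29, adjusted p = 0.0233). The Ech call was lost when control replicate 4 (-0.78, adjusted p = 0.0690), control replicate 5 (-0.78, adjusted p = 0.0611) or Ech replicate 4 (-0.72, adjusted p = 0.0790) was left out, and with a term for the index (-0.77, adjusted p = 0.0705). The index is the number after the last S in the brackets of the title, split here at 56. What it stands for is not stated.

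*Vcan*, the widespread lectican that also marks OPCs, rose. Controls held 111, 183, 133, 56.5 and 76.3 CPM, E1 libraries 233, 116, 99.9, 147 and 347 CPM, E4 libraries 186 to 768 CPM (median 364) and Ech libraries 441 to 985 CPM (median 764). E1 libraries overlapped the controls, whereas all E4 and Ech libraries lay above them. The log2 fold change was 0.76 at E1 (adjusted p = 0.138), 1.98 at E4 (SE 0.32, adjusted p = 1.02e-06) and 2.70 at Ech (SE 0.33, adjusted p = 4.31e-10, 6.51-fold). Without control replicate 2, the control with the highest *Vcan*, the E1 difference passed the threshold (1.02, adjusted p = 0.0481). *Acan*, the lectican of cartilage and perineuronal nets, was near the limit of counting in every stage, with 25, 19, 21 and 45 counts in all over the C, E1, E4 and Ech libraries, and a difference was not detectable at this depth.

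The tenascins were both higher in disease. *Tnr*, the tenascin of perineuronal nets and nodes of Ranvier, was at 68.9, 122, 58.8, 41.4 and 30.9 CPM in controls and at 136, 60.6, 27.3, 78.8 and 175 CPM at E1, overlapping widely. At E4 it was at 65.7 to 369 CPM (median 237), still overlapping the controls, and at Ech at 227 to 614 CPM (median 439.9), above every control. The log2 fold change was 0.58 at E1 (adjusted p = 0.438), 1.74 at E4 (SE 0.40, adjusted p = 0.000457) and 2.72 at Ech (SE 0.41, adjusted p = 1.46e-07, 6.61-fold).

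*Tnc*, the tenascin of developing and injured tissue, started from a much lower level. Controls held 3.47, 7.54, 0, 0.628 and 5.15 CPM, E1 libraries 21.2, 0, 7.11, 7.19 and 50.3 CPM, E4 libraries 17.8 to 49.4 CPM (median 27.4) and Ech libraries 1.69 to 82.8 CPM (median 28.1). Only at E4 did all libraries lie above the controls. The log2 fold change was 2.55 at E1 (SE 0.71, adjusted p = 0.0106), 3.22 at E4 (SE 0.67, adjusted p = 9.65e-05) and 3.33 at Ech (SE 0.65, adjusted p = 4.11e-05), each with a wide error and with controls close to the floor. The E1 change was 1.65 (adjusted p = 0.195) without E1 replicate 5, the library with the highest level.

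*Ptprz1* and *Cspg5* shared a dip at E4. *Ptprz1* was at 828, 654, 621, 817 and 688 CPM in controls, at 546, 571, 120.1, 337 and 547 CPM at E1, at 179.7 to 490.1 CPM at E4 (median 289) and at 351 to 966 CPM at Ech (median 663). E1 and E4 libraries lay below all controls and Ech libraries spanned them. Its log2 fold change was -0.76 at E1 (SE 0.22, adjusted p = 0.0123), -1.21 at E4 (SE 0.21, adjusted p = 2.94e-06) and -0.06 at Ech (adjusted p = 0.962), and without E1 replicate 3, the lowest of its group, the E1 change was -0.51 (adjusted p = 0.0955).

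*Cspg5*, which carries an EGF-like domain and is cut from the cell surface, was at 161, 87.6, 138, 151 and 87.5 CPM in controls and at 199.9, 229, 63.2, 61 and 236 CPM at E1, where the libraries scattered to both sides. It was at 18.7 to 97.1 CPM at E4 (median 40.3) and at 108 to 339.6 CPM at Ech (median 234). The E4 and Ech libraries overlapped the controls but not each other. The log2 fold change was 0.34 at E1 (adjusted p = 0.659), -1.38 at E4 (SE 0.36, adjusted p = 0.00237) and 0.81 at Ech (adjusted p = 0.0865). All 5 control libraries of the cord had an index above 56 and 5 of the 6 E4 libraries had one at or below it. With a term for the index the E4 change of *Cspg5* was -0.96 (adjusted p = 0.209), while the other 6 calls at E4 were still made. At Ech the term gave *Cspg5* 0.98 (adjusted p = 0.0475).

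**Figure D1:**
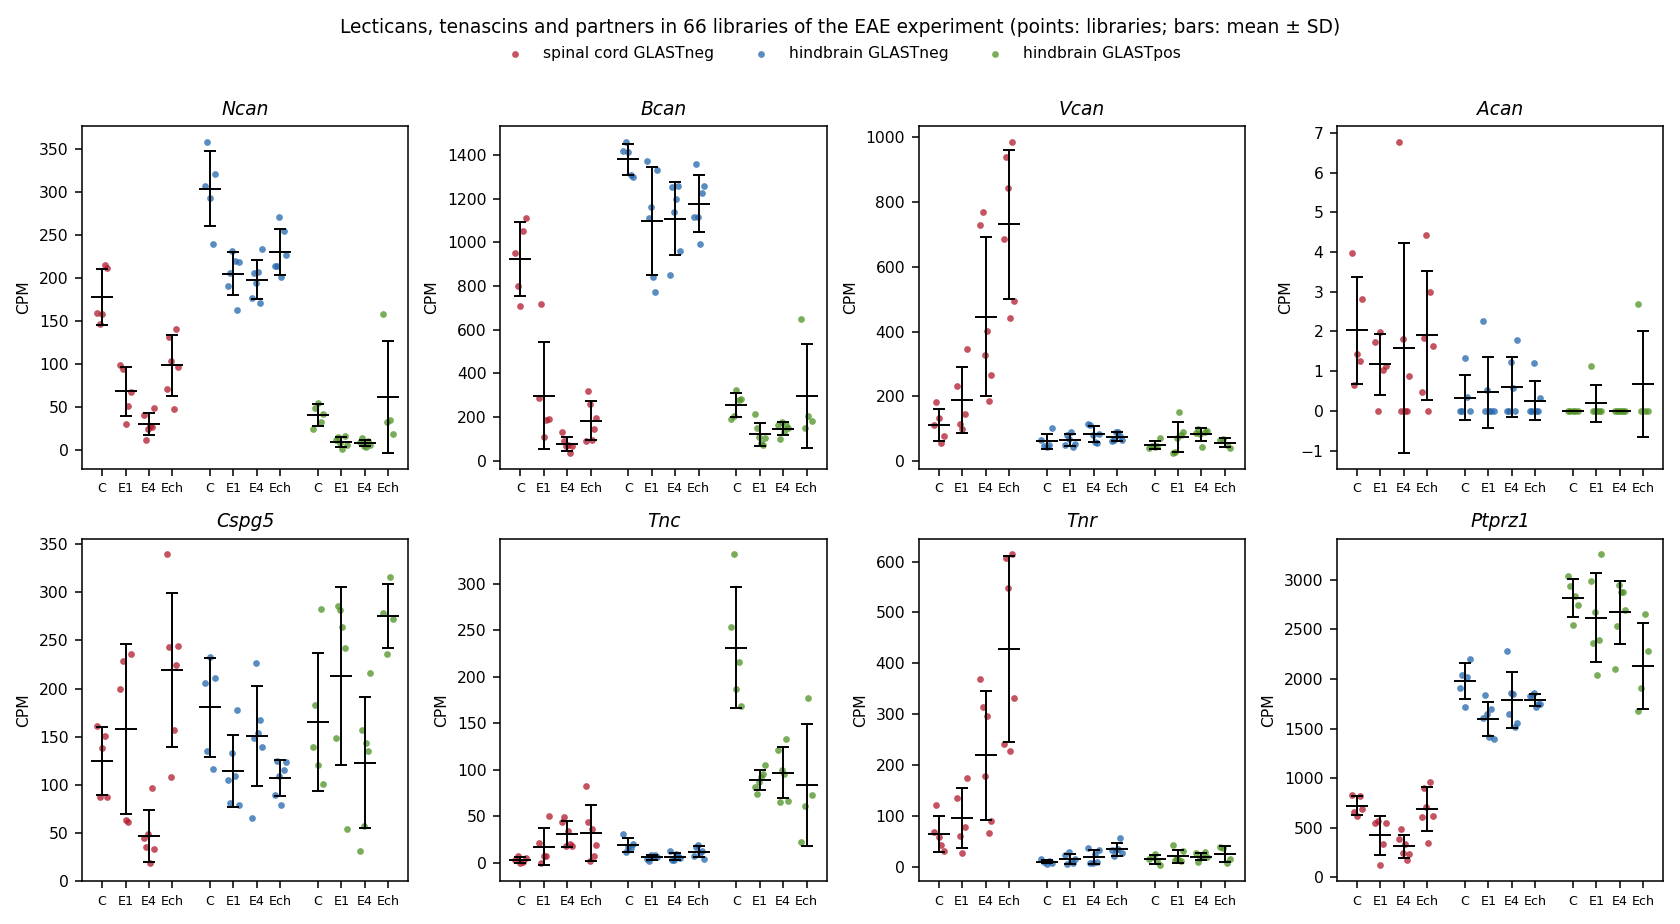
CPM of the 8 genes in each of the 66 EAE libraries, with a panel per gene, a column per stage (C, E1, E4, Ech) within each population, 1 point per library and bars at the mean ± SD. In spinal cord GLASTneg (red) *Bcan* falls from 924 ± 169 CPM in controls to 77.5 ± 31.5 CPM at E4 while *Vcan* climbs from 112 ± 49.8 to 731 ± 229 CPM at Ech. The y axes differ between panels, and the SD bars of *Acan* reach below 0 because most libraries hold 0 counts.

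The stages also differed from each other. From E1 to E4 4 of the 8 genes changed, against 6.15% of all genes: *Bcan* (log2 fold change -1.97, adjusted p = 2.08e-06), *Ncan* (-1.23, adjusted p = 0.00924) and *Cspg5* (-1.72, adjusted p = 0.000468) were lower and *Vcan* (1.22, adjusted p = 0.00605) was higher. The call on *Ncan* was lost without E1 replicate 1 (-1.03, adjusted p = 0.0700) or E1 replicate 2 (-1.06, adjusted p = 0.0632). From E4 to Ech 4 genes changed against 7.36% of all genes, and all of them rose: *Cspg5* by 2.19 (adjusted p = 8.88e-06), *Ncan* by 1.76 (adjusted p = 4.90e-05), *Bcan* by 1.29 (adjusted p = 0.00247) and *Ptprz1* by 1.15 (adjusted p = 3.83e-05). *Vcan* and *Tnr* differed by 0.72 (adjusted p = 0.123) and 0.98 (adjusted p = 0.0749) over the same interval, which did not pass the test. Without E4 replicate 2 *Vcan* passed it (0.93, adjusted p = 0.0461) and *Tnr* did not (1.10, adjusted p = 0.0629). With the index term the calls from E1 to E4 were lost for *Ncan* (adjusted p = 0.220), *Cspg5* (0.104) and *Vcan* (0.0559), and from E4 to Ech for *Bcan* (0.82, adjusted p = 0.222). At Ech every *Bcan* value still lay below the controls, and the *Ptprz1* values spanned them.

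Cell type markers moved with the matrix genes in the spinal cord. Of the 10 astrocyte markers 6, 8 and 8 were lower and 1 was higher at E1, E4 and Ech, with median log2 fold changes of -0.89, -3.49 and -3.86. Of the 8 OPC markers (*Pdgfra*, *Cspg4* and others) 1, 2 and 8 were higher and none was lower, and their sum ran from 375 to 935 CPM in controls, 717 to 1159 CPM at E1, 946 to 1377 CPM at E4 and 1242 to 3038 CPM at Ech. Of 10 oligodendrocyte markers 5, 9 and 4 were higher, with sums of 13915 to 40163 CPM in controls and 28581 to 72647 CPM at E4. Of 6 cell cycle genes 5, 5 and 6 were higher, and of 12 myeloid markers 2, 11 and 3 were higher, with 1 E4 library at 5025 CPM and the other E4 libraries at 138 to 309 CPM. All 7 calls against control at E4 remained without that library, replicate 2 (*Ncan* -2.46, *Bcan* -3.66, *Vcan* 1.75, *Tnr* 1.60). In these bulk libraries fewer cells of a type cannot be told apart from less RNA of a gene per cell.

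The genes were also set against these marker sums. Per 1000 CPM of summed astrocyte markers, the median *Bcan* level of the cord groups was 56, 28.8, 23.5 and 29.9 CPM at C, E1, E4 and Ech. *Bcan* was thus lower in disease relative to this sum, whereas *Ncan* was at 11.5, 8.49, 9.60 and 19.5 CPM. The sum gives most weight to its most abundant markers. Against the median log2 fold change of the astrocyte markers given above, *Bcan* fell further at E1, about as far at E4 and less far at Ech. When the libraries were scaled to their astrocyte markers, which moved the median of all genes up by 0.83, 2.24 and 1.68 on the log2 scale at E1, E4 and Ech, *Bcan* had log2 fold changes of -0.96 (adjusted p = 0.0459), -1.23 (adjusted p = 0.00249) and -0.62 (adjusted p = 0.117). *Ncan* on the same scale was at -0.49 (adjusted p = 0.330), -0.26 (adjusted p = 0.563) and 0.86 (adjusted p = 0.0234). *Ptprz1* was at 0.13, 1.18 and 1.67, and *Cspg5* was at 1.18 (adjusted p = 0.0447), 1.05 (adjusted p = 0.0386) and 2.61 (adjusted p = 5.24e-06). The *Cspg5* values at E1 and Ech lay above the shift of the median of all genes at their stage. All of the other values lay below it, so the change of sign for *Ncan* at Ech, for *Ptprz1* and for *Cspg5* at E4 comes with the shift of the scale.

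Per 1000 CPM of summed OPC markers, the median *Vcan* level was 159, 162, 313 and 344 CPM at C, E1, E4 and Ech, and that of *Tnr* was 99.4, 86.7, 202 and 193 CPM. With libraries scaled to the OPC markers, which moved the median of all genes by -0.59, -0.90 and -1.72, *Vcan* had log2 fold changes of 0.24 (adjusted p = 0.706), 1.22 (adjusted p = 0.00565) and 0.99 (adjusted p = 0.0127). *Tnr* on this scale was at 0.07 (adjusted p = 0.956), 0.97 (adjusted p = 0.0532) and 0.96 (adjusted p = 0.0307), and *Tnc* at 1.98 (adjusted p = 0.140), 2.46 (adjusted p = 0.0223) and 1.77 (adjusted p = 0.0731). Both scalings were chosen after the data had been seen, and neither separates cell number from RNA per cell. The part of the changed cell makeup in the unscaled differences was not tested beyond these scalings.

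**Figure D2:**
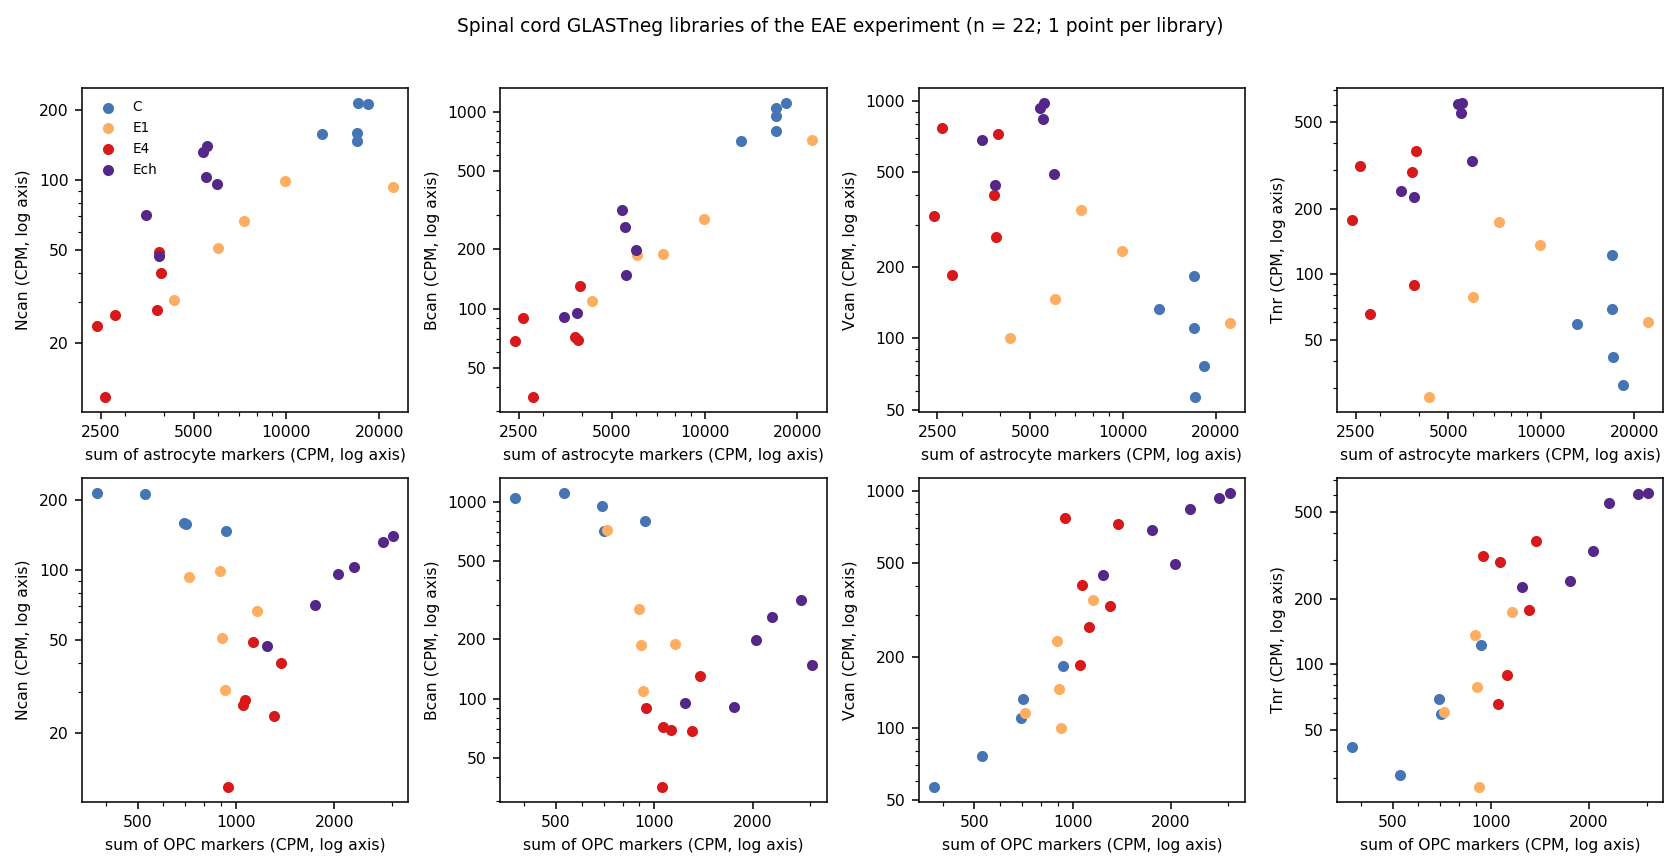
CPM of *Ncan*, *Bcan*, *Vcan* and *Tnr* against the summed CPM of 10 astrocyte markers (top row) and of 8 OPC markers (bottom row) in the 22 spinal cord GLASTneg libraries, both axes logarithmic, 1 point per library coloured by stage. *Bcan* lies low where the astrocyte sum is low, down to 35.5 CPM at E4, and the Ech libraries (purple) lie highest for *Vcan*, up to 985 CPM, where the OPC sum is 1242 to 3038 CPM.

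Within the stages some of the genes varied together across the 22 cord libraries and others did not. After the mean of each stage was taken away, log2 levels of *Vcan* and *Tnr* had a correlation of 0.90, *Bcan* and *Ncan* one of 0.56, *Bcan* and *Ptprz1* one of 0.71 and *Tnr* and *Ptprz1* one of 0.74. Other pairs were near 0, such as *Ncan* and *Vcan* (0.06), *Bcan* and *Cspg5* (0.09), *Vcan* and *Cspg5* (0.01), *Tnr* and *Cspg5* (-0.02) and *Tnc* and *Ptprz1* (0.03), and *Tnc* was at -0.34 with *Bcan* and -0.24 with *Ncan*. With the summed astrocyte markers *Bcan* had a correlation of 0.81 and *Ncan* one of 0.71, and with the OPC sum *Vcan* had one of 0.62 and *Tnr* one of 0.56. *Ptprz1* and *Bcan* ran against the oligodendrocyte sum (-0.73 and -0.67). These are descriptions over libraries in which all levels share 1 total, so that one gene's rise takes from the others.

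In hindbrain GLASTneg astrocytes none of the 8 genes passed the test. The counts were 0 of 8 at E1, E4 and Ech, against 0.72%, 0.746% and 0.0686% of all genes, in edgeR's test and in DESeq2 alike, with 2 genes below an unadjusted p of 0.05 at each stage (*Ncan* and *Tnc* at E1 and E4, *Cspg5* and *Tnr* at Ech). *Ncan* was at 239 to 358 CPM in controls (median 307), 163 to 231 CPM at E1, 171 to 234 CPM at E4 and 201 to 271 CPM at Ech. The E1 and E4 libraries lay below all controls, with log2 fold changes of -0.57 and -0.62, but did not pass the adjusted test. *Tnc* was at 11 to 31.0 CPM in controls and 1.63 to 8.77 CPM at E1, a log2 fold change of -1.59 with no overlap, and at 2.40 to 12.3 CPM at E4. *Tnr* was at 5.99 to 14.9 CPM in controls and 19.8 to 55.8 CPM at Ech, a log2 fold change of 1.74 (adjusted p = 0.596). *Bcan* and *Ptprz1* stayed high throughout, with means of 1098 to 1379 CPM and 1600.1 to 1977 CPM. At E4 all *Bcan* libraries (849 to 1257 CPM) lay below all controls (1299 to 1458 CPM), but the difference did not pass the adjusted test.

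In hindbrain GLASTpos astrocytes *Ncan* was lower at E1 and E4, *Tnc* at every stage and *Bcan* at E1. At E1 3 of the 8 genes changed (1.74% of all genes), at E4 2 (2.9%) and at Ech 1 (2.68%). *Ncan* was at 23.7, 48.9, 54.8, 32 and 41.5 CPM in controls, at 0.726 to 16.1 CPM at E1 (median 9.34, n = 6) and at 3.65 to 13.2 CPM at E4 (median 7.28, n = 6), all below the lowest control. Its log2 fold change was -2.11 at E1 (SE 0.37, adjusted p = 0.000145) and -2.35 at E4 (SE 0.38, adjusted p = 1.52e-05), and both calls were made whichever library was left out. At Ech the 4 libraries held 158, 32.6, 34.8 and 18.7 CPM, 1 of them above every control, and the difference of 0.55 (adjusted p = 0.488) was -0.49 without that library.

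*Tnc* had its highest level of the EAE table in the GLASTpos controls, at 254, 332, 187, 216 and 168 CPM. It was at 73.8 to 105 CPM at E1 (median 89.2), at 65.4 to 133 CPM at E4 (median 97.6) and at 22.6, 61.2, 177 and 73.1 CPM at Ech. All E1 and E4 libraries lay below the controls and 1 Ech library lay among them. The log2 fold changes of -1.37 (adjusted p = 0.0375), -1.25 (adjusted p = 0.0499) and -1.44 (adjusted p = 0.0496) were close to the threshold and passed it in only 2 of 11, 1 of 11 and 1 of 9 fits that left out a library. *Bcan* was at 191, 206, 322, 276 and 282 CPM in controls and at 74.2 to 215 CPM at E1 (median 107), a log2 fold change of -1.06 (SE 0.30, adjusted p = 0.0447) that held in 2 of 11 such fits, and at E4 it was at 101 to 177 CPM (-0.79, adjusted p = 0.162). *Vcan*, *Cspg5*, *Tnr* and *Ptprz1* did not pass the test at any stage. The astrocyte marker sum of GLASTpos libraries was 25706 to 28182 CPM in controls, 23604 to 30849 CPM at E1, 18352 to 30927 CPM at E4 and 18130 to 24693 CPM at Ech, so that all Ech libraries lay below all controls. Its part in the changes was not tested.

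One GLASTpos library stands apart at Ech. Replicate 1 held 650.2 CPM of *Bcan* and 158 CPM of *Ncan*, against at most 205 and 34.8 CPM in the other Ech libraries. It also held the most oligodendrocyte markers (4227 CPM, against 2207 to 2860), OPC markers at 168 CPM, T cell markers at 107 CPM (against 9.08 to 19.3) and the fewest Bergmann glia markers (2114 CPM, against 3583 to 5108). Without it the Ech change of *Tnc* was -1.15 (adjusted p = 0.206) and no gene of the 8 was called changed at Ech. The part of those other markers in its values was not tested.

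**Figure D3:**
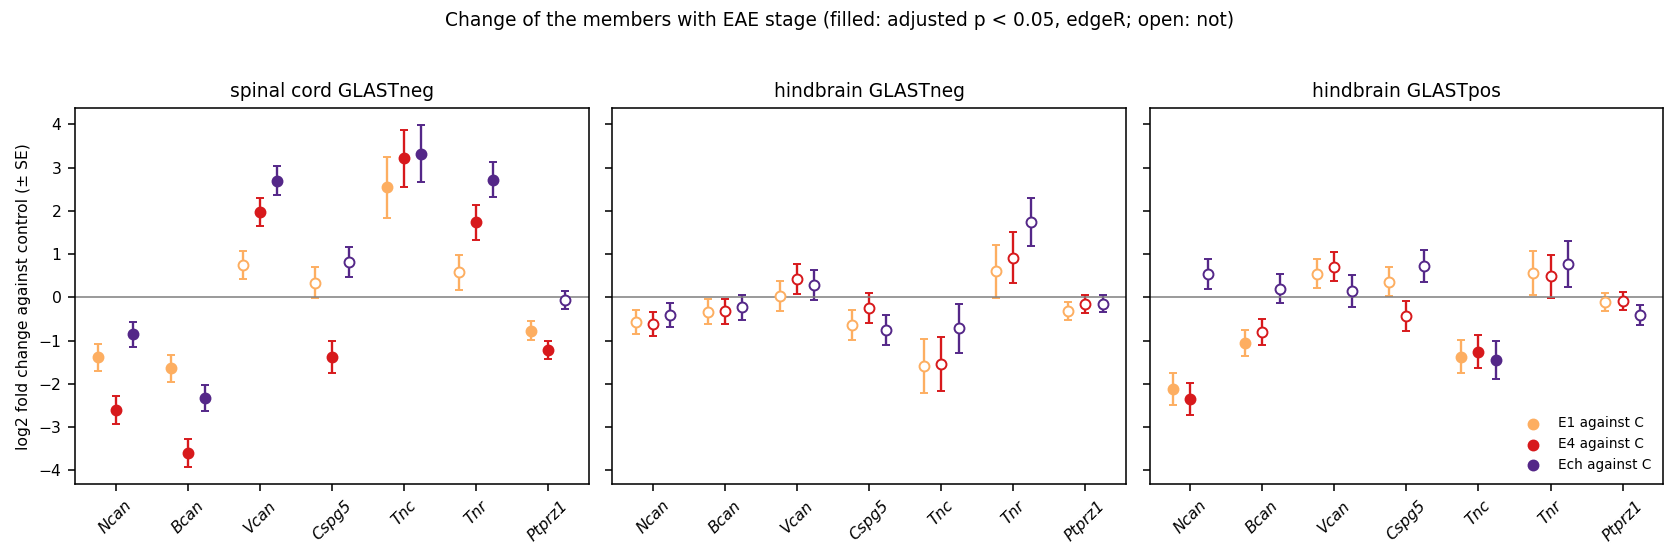
Log2 fold change against control (± SE) of 7 genes at E1, E4 and Ech in the 3 populations, filled where the adjusted p was below 0.05 (edgeR) and open where it was not; *Acan* is left out because of its low counts. The filled points spread from -3.60 (*Bcan*, E4) to 3.33 (*Tnc*, Ech) in spinal cord GLASTneg, no point is filled in hindbrain GLASTneg, and in hindbrain GLASTpos *Ncan*, *Bcan* and *Tnc* are the filled genes.

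Whether the populations responded differently was tested directly, as the difference of their log2 fold changes. At E4 spinal cord and hindbrain GLASTneg cells differed for 5 of the 8 genes (8.38% of all genes): *Bcan* by -3.29 (adjusted p = 7.78e-09), *Ncan* by -1.99 (adjusted p = 0.000462), *Ptprz1* by -1.06 (adjusted p = 0.00979), *Vcan* by 1.55 (adjusted p = 0.0209) and *Tnc* by 4.76 (adjusted p = 8.50e-05). The call on *Vcan* was lost without spinal cord E4 replicate 2, the E4 library with the most myeloid markers (1.30, adjusted p = 0.0683). At Ech 4 genes differed (7.74% of all genes), namely *Bcan*, *Vcan*, *Tnc* and *Cspg5* (1.56, adjusted p = 0.0323). Spinal cord GLASTneg differed from hindbrain GLASTpos for 3 genes at E4 (12% of all genes) and 5 at Ech (13.2%), with *Tnc* at 4.47 and 4.77, a rise in the cord set against a fall in GLASTpos cells. The difference for *Ncan* at E4 did not pass the test (-0.26, SE 0.52). The responses of hindbrain GLASTpos and GLASTneg cells differed for none of the 8 genes at E4 or Ech, where 0% and 0.0429% of all genes did, with 1 (*Ncan*) and 2 (*Ncan*, *Cspg5*) genes below an unadjusted p of 0.05 in edgeR, and DESeq2 called 0 as well. With limma's voom and a block by the bracketed number, spinal cord against hindbrain GLASTneg gave 2 genes at Ech (*Bcan* and *Vcan*) and spinal cord against GLASTpos gave 3 (*Bcan*, *Vcan* and *Tnc*), and voom with no block gave the same counts. These tests share control libraries between stages, and the cord and hindbrain cells came with different marker makeups.

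The unimmunized C57BL/6 populations already differed in these genes. All 5 hindbrain GLASTneg control libraries had an index at or below 56, and all GLASTpos and cord controls had one above it. Population and index therefore cannot be told apart in the comparisons with hindbrain GLASTneg. A term for the index, which only the cord stages could inform, gave 3 genes in each, with 1877 (GLASTpos) and 903 (cord) of all genes called. Between GLASTpos and GLASTneg hindbrain 3 of 8 genes differed (14.8% of all genes): *Ncan* was 7.54-fold lower in GLASTpos cells (40.2 ± 12.6 against 304 ± 43.5 CPM, SD, n = 5 each, adjusted p = 7.69e-11), *Bcan* was 5.39-fold lower (255 ± 55.2 against 1379 ± 71.7 CPM, adjusted p = 9.82e-09) and *Tnc* was 12.2-fold higher (231 ± 64.7 against 18.9 ± 7.47 CPM, adjusted p = 1.55e-08). The ranges did not overlap for any of these genes, and *Ptprz1* differed by a log2 fold change of 0.51 (adjusted p = 0.102). Between spinal cord and hindbrain GLASTneg cells 3 of 8 differed (6.64% of all genes): *Tnr* was higher in the cord (log2 fold change 2.69, SE 0.54, adjusted p = 0.000232), and *Tnc* (-2.58, SE 0.74, adjusted p = 0.0170) and *Ptprz1* (-1.45, SE 0.22, adjusted p = 7.83e-07) were lower. Between spinal cord GLASTneg and hindbrain GLASTpos 7 of 8 differed (19.2% of all genes), with *Tnc* lower in the cord by -6.18 on the log2 scale (adjusted p = 1.20e-13) and *Ncan* (2.15), *Bcan* (1.85), *Vcan* (1.15) and *Tnr* (2.23) higher. *Acan*, with 25 counts over the cord controls and 0 over the GLASTpos controls, was the seventh (adjusted p = 0.0412), and its call was lost with a replicate block or without a filter on low counts.

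Ordered over the 12 groups, each gene had its own profile. *Ncan* and *Bcan* were highest in the 4 hindbrain GLASTneg groups and the cord controls, and *Ncan* alone had a gap there, since the cord controls (178 ± 32.6 CPM) did not overlap the next group, cord Ech (98.2 ± 35.4 CPM). The lowest *Ncan* was in GLASTpos E4 (7.72 ± 3.84 CPM) and the lowest *Bcan* in cord E4. *Vcan* and *Tnr* were ordered Ech, E4, E1 and C in the spinal cord, ahead of all 8 hindbrain groups, in which mean *Vcan* was 50.2 to 84.1 CPM, and neighbouring groups overlapped throughout. *Tnc* was highest in GLASTpos controls, which did not overlap the next group in the order (GLASTpos E4, 97.0 ± 27.9 CPM), and lowest in cord controls (3.36 ± 3.14 CPM). *Ptprz1* was highest in the GLASTpos groups (2130.2 to 2818 CPM), then the hindbrain GLASTneg groups, with a gap between the last of these (E1, 1600.1 ± 170.4 CPM) and the cord controls (722 ± 94.9 CPM). *Cspg5* ranged only from 46.6 CPM (cord E4) to 275 CPM (GLASTpos Ech), and mean *Acan* was 2.02 CPM or less in every group.

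The genes whose log2 levels ran most nearly with each member over the 66 EAE libraries were taken from the 10950 genes that averaged 5 CPM or more. For *Ncan* they included *Kcnd2* (r = 0.93) and *Meis2* (0.90), for *Bcan* *Chst1* and *Serpine2* (0.95) and *Ephb3* (0.94), and for *Ptprz1* *Luzp2* (0.97), *Nlgn1* (0.96) and *Gpm6a* (0.95). For *Tnr* they were *Opcml* (0.88), *Susd5* (0.87) and *Slc1a1* (0.87), and for *Vcan* *Ppfibp1* (0.88), *Rps26* (0.87) and *Susd5* (0.86), so that *Susd5* was in both lists. *Tnc* (*Cacng5*, *Mtmr4* and *Pcdh20*, 0.79) and *Cspg5* (*Insyn1*, 0.78) had looser neighbours, and *Acan*, at its low level, had *Hoxa7* at 0.62. The libraries share populations, regions and stages, so these correlations follow the group means and carry no test.

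Genes that assemble, modify and cut this matrix were read from 5 lists. In spinal cord GLASTneg, all genes tested were higher in 4.62%, 10.5% and 9.59% and lower in 5.81%, 12.6% and 11.7% of cases at E1, E4 and Ech, with a median change of 0. Of 12 hyaluronan and link genes 1, 1 and 2 were higher and 1, 4 and 2 lower (median log2 fold change -0.49, -0.78 and -0.37). *Hapln2*, the link protein of nodes of Ranvier and a neighbour of *Bcan*, rose from 129.8 CPM in controls to 299, 390.1 and 247 CPM (log2 fold change 1.19, 1.58 and 0.92), opposite to *Bcan*. Several oligodendrocyte markers were also higher in these libraries, as given above, and their part in the rise of *Hapln2* was not tested. *Hyal1*, a hyaluronidase, fell by 1.28 at E4 and 1.96 at Ech on the log2 scale.

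Of 21 chondroitin sulphate synthesis genes tested none was higher and 2 were lower at E1, none higher and 6 lower at E4, and 4 higher and 3 lower at Ech (median -0.29, -0.50 and -0.20). *Csgalnact1*, the enzyme that starts the chondroitin chain, fell from 81.3 CPM to 24.6, 4.47 and 7.98 CPM (log2 fold change -1.79, -4.37 and -3.31). *Xylt1*, which adds the first sugar of the linker, fell by 1.85 at E4 on the log2 scale, and *Chpf2*, a chain polymerizing factor, fell by 1.46, 1.46 and 1.27 at E1, E4 and Ech. At Ech the sulphotransferases *Ust* (1.98) and *Chst11* (1.67) rose.

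Of 15 proteases that cut lecticans and their inhibitors 1, 1 and 2 were higher and 3, 4 and 3 lower (median -0.37, -0.96 and -0.33). *Mmp14*, a membrane-bound metalloproteinase, fell from 407 CPM to 99.1, 42.2 and 30.3 CPM, and the inhibitors *Timp3* (log2 fold change -1.18, -2.71 and -2.98) and *Timp4* (-1.36, -2.88 and -2.27) fell with it. *Adamts1*, which cuts aggrecan and versican, rose from 66.2 to 199.7 CPM at E1 (1.58) and to 148 CPM at Ech (1.14). Of 17 receptors and ligands tested 2, 2 and 5 were higher and 2, 7 and 4 lower (median -0.16, -0.61 and -0.26). *Cntn2*, a contactin bound by *Ptprz1* products, rose at E1 (1.07) and E4 (1.99), and *Itga9* (1.46) and *Itgb1* (1.17), subunits of a tenascin-C receptor, rose at Ech. *Mdk*, a ligand of *Ptprz1*, fell by 1.40, 2.73 and 1.90 on the log2 scale, and *Sdc4*, a syndecan, fell by 2.70 at E4 and 4.16 at Ech. The largest fall of this list was that of *Egfr*, the epidermal growth factor receptor, from 53.2 CPM to 3.19 CPM at E4 (-4.11) and 1.71 CPM at Ech (-4.89).

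Of 17 other matrix proteoglycans and related proteins none was higher and 2 were lower at E1, 4 higher and 7 lower at E4, and 4 higher and 6 lower at Ech (median 0.00, -0.03 and -0.04). *Matn4*, a matrilin that binds lecticans, rose by 1.26 at E4 and 2.33 at Ech, and *Cspg4* (NG2), which is also in the OPC list, rose by 1.01 and 2.27. The glypican *Gpc5* fell from 123 CPM to 3.25 CPM at E4 and 3.14 CPM at Ech (log2 fold change -5.47 and -5.21) and *Sparcl1* (hevin) fell from 6858 to 473 CPM at Ech (-3.85). Several of these genes are strongly expressed by astrocytes, whose markers fell in the same libraries, and the part of that was not tested. The part of the higher oligodendrocyte markers in the rises of the lists, such as that of *Cntn2*, was not tested either.

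In the hindbrain 0 to 2 genes of each list changed at a stage, where 0.0686% to 0.746% of all genes did in GLASTneg and 1.74% to 2.9% in GLASTpos. In GLASTpos these were 2, 2 and 1 of 12 hyaluronan and link genes and 2, 2 and 1 of 15 proteases and inhibitors at E1, E4 and Ech. *Hapln2* rose in GLASTneg cells at E1 (18.4 to 81.2 CPM, log2 fold change 2.05) and in GLASTpos cells from 0.249 CPM to 7.65, 6.58 and 7.0 CPM at E1, E4 and Ech. *Timp1*, an inhibitor made by reactive astrocytes, rose at E1 and E4 in GLASTneg (3.79 and 3.85) and in GLASTpos cells (3.84 and 2.78), and *Cd44*, the hyaluronan receptor, rose in GLASTpos cells (2.39 and 1.81). *Cntn2* rose in GLASTneg cells at E1 (1.39) and in GLASTpos cells at E4 (1.42) and Ech (1.75). Oligodendrocyte markers moved in the same libraries, with sums of 1393 to 4871 CPM in GLASTneg controls and 3916 to 11579.5 CPM at E1.

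**Figure D4:**
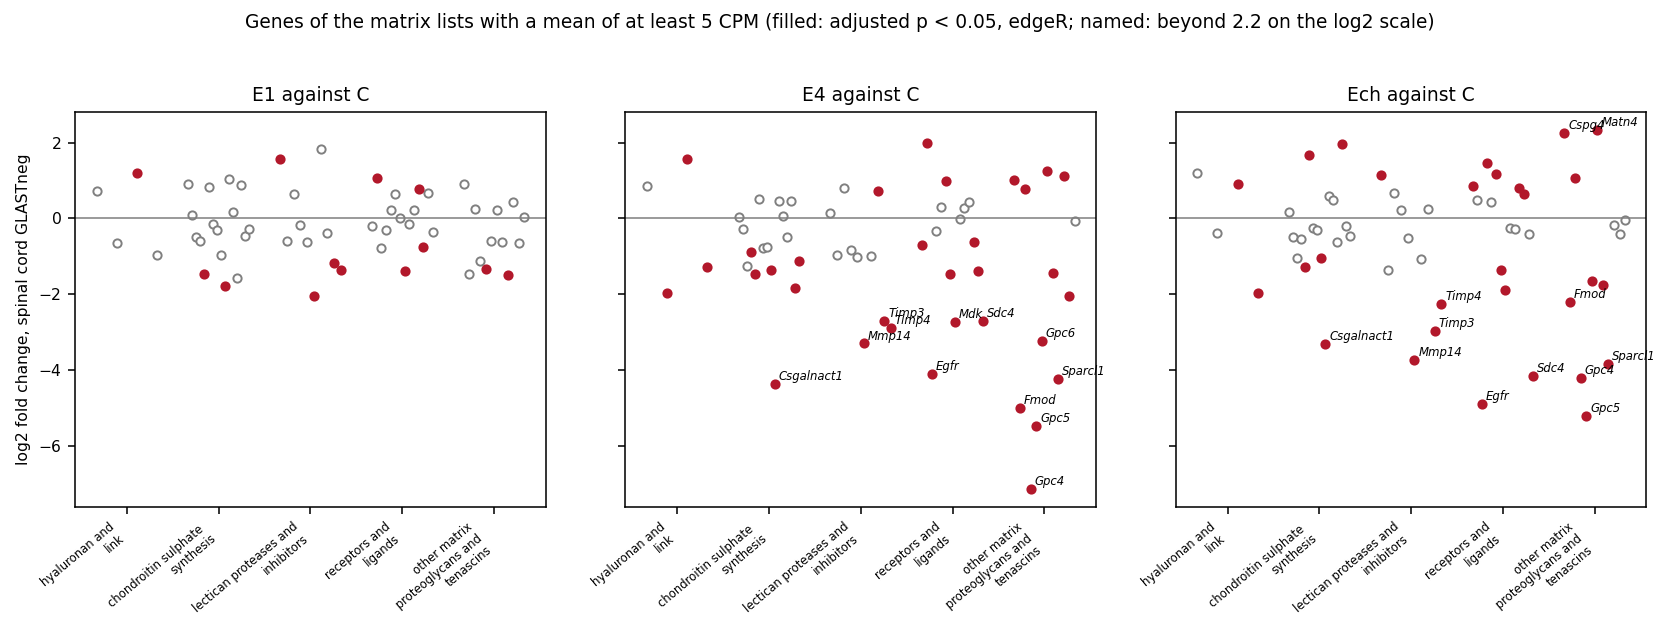
Log2 fold change against control in spinal cord GLASTneg of the genes of the 5 matrix lists that averaged 5 CPM or more, 1 point per gene, at E1, E4 and Ech, filled where the adjusted p was below 0.05 (edgeR); names are given beyond 2.2 on the log2 scale. *Gpc5* (-5.47 at E4, -5.21 at Ech) and *Egfr* (-4.89 at Ech) lie far down, and *Gpc4* had no counts and *Fmod* a mean of 0.205 CPM at E4, so their plotted values there are no bounds.

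The FVB/N libraries are given with a caution. In 12 of the 15 libraries the study's supplement names another population than the GEO labels for the same values: forebrain GLASTpos by label is hindbrain GLASTneg there, hindbrain GLASTneg is spinal cord, hindbrain GLASTpos is forebrain GLASTpos and spinal cord is hindbrain GLASTpos. Summed *Hox* levels were 479.7 to 601 CPM in the libraries labelled hindbrain GLASTneg and 0 to 1.24 CPM in those labelled spinal cord, which held 6397 to 7987 CPM of Bergmann glia markers, a cerebellar cell type. Forebrain markers summed to 888 to 1021 CPM in the libraries labelled hindbrain GLASTpos and 7.55 to 33.9 CPM in those labelled forebrain GLASTpos. These region markers sat with the supplement's names and not with the labels. Values are therefore given for "the libraries labelled" so, and no direction between populations is drawn from the labels alone. CPM are scaled over the FVB/N and cultured libraries together.

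*Ncan* was at 540.1, 606.5 and 513.9 CPM in the libraries labelled forebrain GLASTneg and at 625.5, 645 and 607 CPM in those labelled hindbrain GLASTpos. It was lower in those labelled forebrain GLASTpos (275, 220.3 and 307 CPM), hindbrain GLASTneg (302, 321 and 228 CPM) and spinal cord GLASTneg (42.15, 113 and 115 CPM), with no overlap between the upper pair of groups and the other groups. *Cspg5* split in the same way, at 1091 to 1416 and 1292 to 1796 CPM in the upper pair and at 85.2 to 231, 94 to 174 and 232 to 490 CPM in the others. In the supplement's naming the upper pair is forebrain GLASTneg and forebrain GLASTpos, and the group with the lowest *Ncan* is hindbrain GLASTpos.

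*Tnc* was at 88, 133 and 165 CPM in the libraries labelled spinal cord and at 0 to 22.2 CPM in all other FVB/N libraries. *Vcan* was at 98.2, 92.6 and 71.2 CPM in those labelled forebrain GLASTpos and at 4.78 to 20.7 CPM in forebrain GLASTneg, *Ptprz1* ran from 1059 CPM (labelled hindbrain GLASTneg) to 3512 CPM (labelled spinal cord), and *Bcan* from 357 CPM (labelled spinal cord) to 2499.8 CPM (forebrain GLASTneg). *Tnr* was at 0 to 41.8 CPM, near the floor in most libraries, and *Acan* was at 3 counts or fewer in every library and was not tested.

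By label, 3 of the 7 genes tested differed between forebrain GLASTpos and GLASTneg (1.5% of all 14957 genes): *Vcan* (log2 fold change 2.97, adjusted p = 0.000109), *Cspg5* (-2.81, adjusted p = 2.47e-10) and *Ncan* (-1.05, adjusted p = 0.0112). Between hindbrain GLASTpos and GLASTneg 3 differed (4.99% of all genes), with *Cspg5* at 3.42, *Ncan* at 1.12 (adjusted p = 0.00219) and *Ptprz1* at 1.15. Between hindbrain and forebrain GLASTneg 3 differed (2.93%), with *Ncan* at -0.93 (adjusted p = 0.0229), *Cspg5* at -2.99 and *Ptprz1* at -1.09. Between spinal cord and hindbrain GLASTneg 5 differed (8.32%), with *Ncan* at -1.67, *Bcan* at -1.53, *Cspg5* at 1.2, *Ptprz1* at 1.43 and *Tnc* from at most 2.35 CPM to the level given above, for which the fitted fold is no bound. In the supplement's naming the first comparison set hindbrain against forebrain GLASTneg, and the second set forebrain GLASTpos against spinal cord. The third set spinal cord against forebrain GLASTneg, and the last set hindbrain GLASTpos against spinal cord.

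With the names of the supplement the same comparisons gave other answers. Forebrain GLASTpos against GLASTneg gave no changed gene of the 7 in edgeR's test (0.0334% of all genes), with 1 gene, *Vcan* at 1.29, below an unadjusted p of 0.05. Hindbrain GLASTpos against GLASTneg gave 5 (5.09%): *Ncan* at -1.56, *Bcan* at -1.44, *Cspg5* at 1.03, *Tnc* at 4.90 and *Ptprz1* at 0.71. For the side by side view, the C57BL/6 controls had -2.91, -2.43 and 3.60 for *Ncan*, *Bcan* and *Tnc* in that comparison, in another strain and a separately scaled table. Hindbrain against forebrain GLASTneg gave 3 (1.5% of all genes) and spinal cord against hindbrain GLASTneg gave 1 (1.46%), *Ptprz1* at -0.72 (adjusted p = 0.0255). The former set the same libraries against each other as forebrain GLASTpos against GLASTneg by label.

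**Figure D5:**
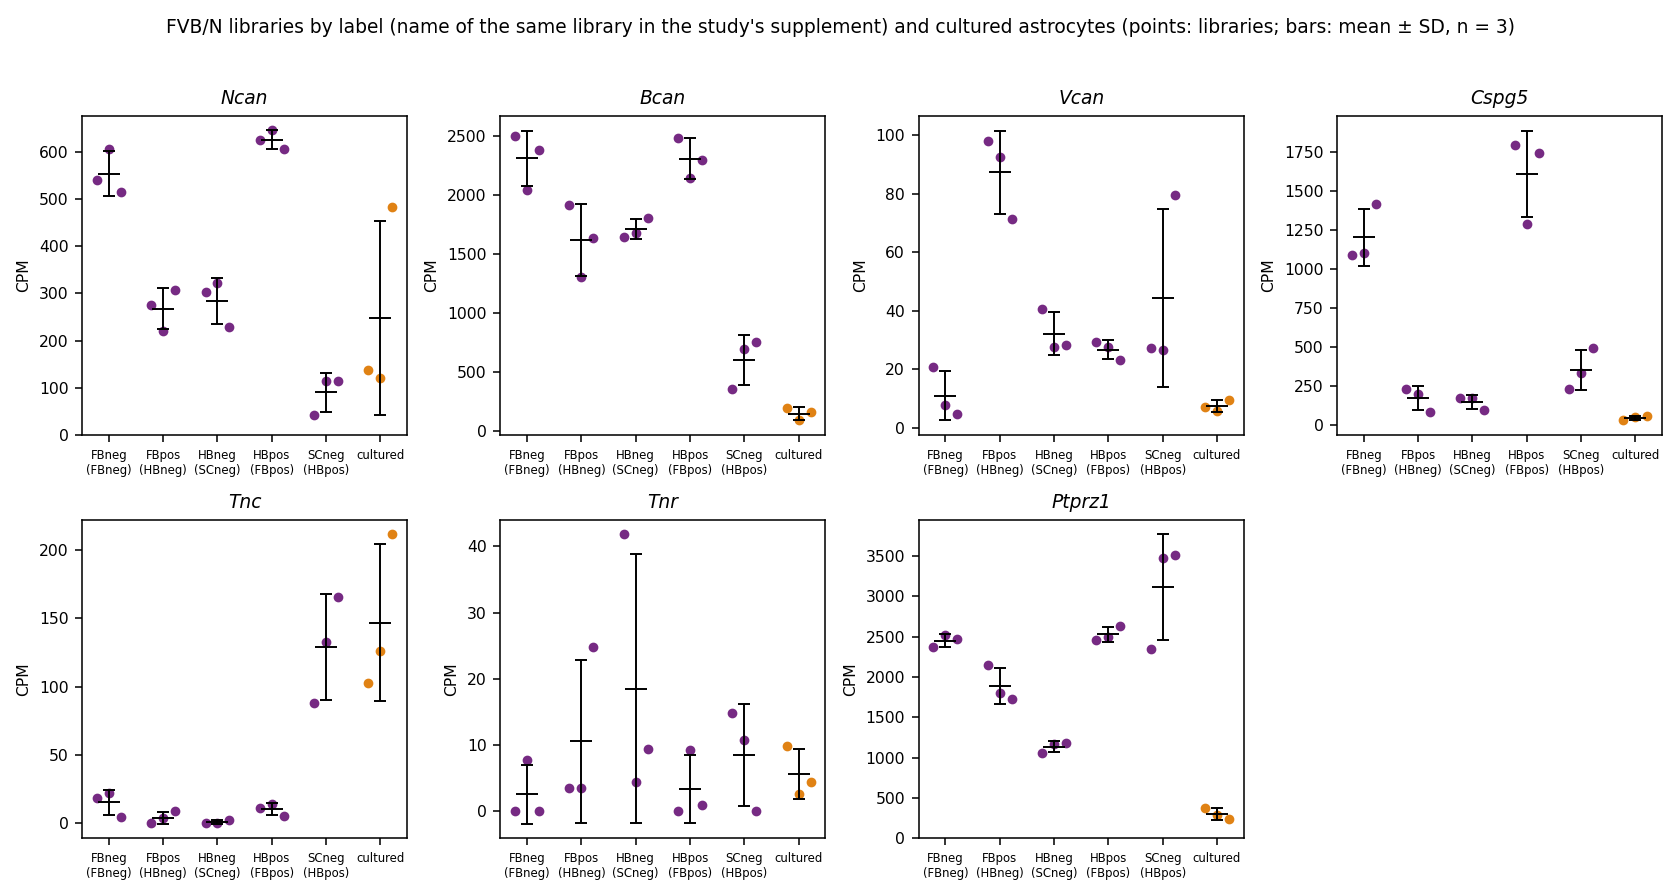
CPM of 7 genes in the FVB/N libraries, grouped by GEO label with the supplement's name of the same libraries in brackets, and in cultured neonatal astrocytes (orange), 1 point per library with bars at the mean ± SD (n = 3). *Tnc* is high in the libraries labelled spinal cord (129 CPM on average) and in culture (147 CPM), and *Cspg5* and *Ptprz1* are lowest in culture (43.5 and 301 CPM).

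Cultured neonatal astrocytes held more *Tnc* and less *Bcan*, *Vcan*, *Cspg5* and *Ptprz1* than the mean of the sorted FVB/N groups, taken on the log scale. They were grown for 14 days from the cerebrum of postnatal C57BL/6 mice, so culture, age, strain and region cannot be told apart in this comparison, which is free of the naming problem because it sets the culture against the mean of all 5 FVB/N groups. *Bcan* was at 194, 88.8 and 159 CPM in culture and at 357 CPM or more in every FVB/N library. *Ptprz1* was at 379, 284 and 239.8 CPM against at least 1059 CPM, and *Cspg5* at 28.2, 47.4 and 54.9 CPM against at least 85.2 CPM. *Vcan*, at 5.71 to 9.61 CPM in culture, overlapped the forebrain GLASTneg libraries (4.78 to 20.7 CPM) and lay below the other FVB/N libraries (at least 23.1 CPM). *Tnc* was at 103, 126 and 212 CPM in culture, a range met only by the libraries labelled spinal cord.

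Of the 7 genes 5 changed, where 43.9% of 17126 genes did and the median of all genes was shifted by 0.41. *Bcan* (log2 fold change -3.41, SE 0.24, adjusted p = 2.86e-14), *Cspg5* (-3.32, SE 0.28, adjusted p = 2.61e-12), *Ptprz1* (-2.81, SE 0.19, adjusted p = 8.11e-15) and *Vcan* (-2.15, SE 0.35, adjusted p = 4.75e-06) were lower, and *Tnc* was higher (4.08, SE 0.32, adjusted p = 4.73e-13). These are contrasts with the mean of the groups' log levels and no ratios of mean CPM. For *Tnc* that mean is pulled down by the libraries labelled hindbrain GLASTneg, which held 1 count in all (0.784 CPM on average). *Ncan* was at 137, 121 and 484 CPM in culture and was not called (-0.27, SE 0.26, adjusted p = 0.423), with the third library far above the others, and without it *Ncan* was at -1.26 (adjusted p = 6.82e-05). The summed astrocyte markers were 5552 to 6127 CPM in culture and 22996 CPM or more in every FVB/N library.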

How the data were processed

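Gene counts were deposited as 2 tables, which the authors made by aligning QuantSeq 3′ FWD reads (single reads, HiSeq 2500) to GRCm38 with HISAT 0.1.5, sorting with SAMtools and counting with HTSeq 0.6.1p1 in union mode, and the strand setting is not given in the sources used here. Counts were tested as deposited in R 4.3.3 with edgeR 4.0.16: genes whose counts summed to 10 or more in the fitted libraries were kept (23324 for EAE, 14957 for FVB/N, 17126 with cultured cells), libraries were scaled by TMM, and quasi-likelihood tests over 1 coefficient per group were adjusted by Benjamini-Hochberg over all genes, with 0.05 as the threshold. The SE is the log2 fold change divided by the root of its F. CPM were computed on the scaled library sizes, and a sum of 3 counts or fewer was treated as the floor. Libraries were grouped by GEO labels, and the population names of the study's supplement were an alternative. DESeq2 1.42.0, limma 3.58.1 (voom, with the bracketed number of the title as a block through duplicateCorrelation), RLE factors, no filter, a replicate block, a fit per population, a term for the index, fits that left out 1 library, and, added after the data had been seen, an older edgeR dispersion fit, voom with no block and scaling to astrocyte or OPC markers were the other alternatives. The index is the number after the last S in the title's brackets, split at 56, and its meaning is not stated. Scripts were tested on simulated data.

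The 8 genes, the gene lists and the marker lists were chosen with earlier results of these data known. All 8 genes are named. Of the lists, genes were named from the 3 with the largest rise and the 3 with the largest fall per list among changed genes that averaged 5 CPM or more, and the 3 genes with the highest Pearson correlation of log2(CPM + 1) with each member were taken as most alike. Replicate numbers do not pair the libraries (mean correlation of deviations -0.00436 for the same number and 0.000974 for different numbers in the EAE table), and libraries that share the bracketed number had a mean correlation of 0.0315 over 56 pairs (lowest -0.105), against -0.000845 for others. Depth was 416768 to 4895220 counts in sorted libraries, and no interval other than the replicate spread is given. One of the genes that the rule for the nearest patterns names is not reported here.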

Additional observations from a re-analysis of the deposited data

Results flagged for a closer look

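Single libraries that lay far from the others of their group were looked for in 92 sets (a gene in a group of 4 to 6 libraries) by Dixon's criterion at the 95% level, which flags about 1 in 20 sets by chance, and 9 were found. Both *Bcan* (650.2 CPM) and *Ncan* (158 CPM) were highest in hindbrain GLASTpos Ech replicate 1, and so was *Acan* (2.68 CPM, against 0 in the other libraries). *Bcan* was highest in spinal cord E1 replicate 2 (719.6 CPM), the E1 library with the most astrocyte markers. *Vcan* was lowest in hindbrain GLASTpos E4 replicate 4 (42.3 CPM) and highest in control replicate 5 of that population (71.7 CPM). The other 3 flags were of *Acan* at a few counts: hindbrain GLASTneg E1 replicate 1 (2.26 CPM), hindbrain GLASTpos E1 replicate 1 (1.13 CPM) and spinal cord E4 replicate 1 (6.77 CPM).

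Responses that differed between populations were found in 17 of 48 tests, as differences of log2 fold changes in edgeR with Benjamini-Hochberg adjustment over all genes. At E4, spinal cord minus hindbrain GLASTneg gave -1.99 for *Ncan* (adjusted p = 0.000462), -3.29 for *Bcan* (7.78e-09), 1.55 for *Vcan* (0.0209), 4.76 for *Tnc* (8.50e-05) and -1.06 for *Ptprz1* (0.00979). Spinal cord minus hindbrain GLASTpos gave -2.81 for *Bcan* (6.06e-07), 4.47 for *Tnc* (6.58e-06) and -1.14 for *Ptprz1* (0.00388). The E4 difference of *Vcan* from hindbrain GLASTneg was 1.30 (adjusted p = 0.0683) without spinal cord E4 replicate 2. At Ech, spinal cord minus hindbrain GLASTneg gave -2.09 for *Bcan* (0.000149), 2.42 for *Vcan* (8.39e-05), 1.56 for *Cspg5* (0.0323) and 4.04 for *Tnc* (0.000633). Spinal cord minus hindbrain GLASTpos gave -1.40 for *Ncan* (0.0257), -2.52 for *Bcan* (1.04e-05), 2.56 for *Vcan* (7.08e-05), 4.77 for *Tnc* (2.95e-06) and 1.95 for *Tnr* (0.0418), which passed in 8 of the 20 fits that left out a library (1.63 to 2.34, adjusted p up to 0.141). That difference for *Ncan* was -0.39 (adjusted p = 0.748) without hindbrain GLASTpos Ech replicate 1, the library with the outlying *Ncan*. The astrocyte marker sum was lower in all cord E4 and Ech libraries (2429.6 to 5976 CPM) than in all cord controls (13071 to 18366 CPM), and lower in all hindbrain GLASTpos Ech libraries (18130 to 24693 CPM) than in their controls (25706 to 28182 CPM), while the hindbrain GLASTneg stages overlapped their controls. Its part in these differences was not tested.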

How the results depend on the processing

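The counts of changed genes among the 8 stayed within 1.5 times in every planned refit in the spinal cord at E4 (7) and Ech (5). The voom fit had a block by the bracketed number (estimated correlation 0.0366, 26 blocks), and voom with no block, added after seeing the data, gave the same count in all 20 comparisons of the EAE table. Where a count moved further, the cause was not tested. In the spinal cord at E1 (4 in the main test) voom and the fit of the population alone each gave 2, with *Tnc* and *Ptprz1* lost. From E1 to E4 (4) voom gave 2 and a term for the index gave 1. In hindbrain GLASTneg (0 at each stage) fits without the filter gave 1, 1 and 1 (*Tnc*, *Tnc*, *Tnr*), and fits of the population alone gave 2, 2 and 1. In hindbrain GLASTpos at E1 (3) the older edgeR fit gave 1, at E4 (2) RLE, DESeq2 and the older fit gave 1 each, and at Ech (1) RLE, DESeq2, the replicate block and the older fit gave 0 and voom gave 2. Between cord and hindbrain GLASTneg controls (3) the unfiltered fit gave 5. For differences in response, cord against hindbrain GLASTneg gave 3 with the index term at E4 (5) and 2 with voom at Ech (4), cord against GLASTpos gave 6 without the filter at E4 (3) and 3 with voom at Ech (5), and GLASTpos against GLASTneg gave 1 and 1 without the filter (0). With the supplement's names forebrain GLASTpos against GLASTneg gave 0 (3), hindbrain GLASTpos against GLASTneg 5 (3) and cord against hindbrain 1 (5). Calls at E4 and Ech in the cord that were lost with the index term were *Cspg5* at E4 (-0.96, adjusted p = 0.209) and *Ncan* at Ech (-0.77, adjusted p = 0.0705). Index and stage nearly coincided at E4, where 5 of 6 libraries but no control had an index at or below 56. Calls over all genes at E4 fell from 5391 to 2704 with the term, so a lost call does not show what it rested on.

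With single libraries left out, the count in the cord was 3 to 5 at E1, 7 to 7 at E4 and 4 to 5 at Ech, 3 to 5 from E1 to E4 and 4 to 6 from E4 to Ech. It was 0 to 0 in hindbrain GLASTneg, 1 to 2, 1 to 2 and 0 to 1 in GLASTpos, 3 to 3, 2 to 3 and 6 to 7 between controls (GLASTpos against GLASTneg, cord against GLASTneg, cord against GLASTpos), 4 to 6, 3 to 4 and 0 to 0 for the E4 differences in response, 3 to 4, 4 to 5 and 0 to 0 for those at Ech, 2 to 3, 3 to 3, 2 to 4 and 5 to 5 in FVB/N and 5 to 6 in culture. Marker scaling moved the median of all genes by 0.83, 2.24 and 1.68 (astrocyte) and -0.59, -0.90 and -1.72 (OPC) at E1, E4 and Ech, and signs turned within that shift for *Ptprz1* (0.13, 1.18 and 1.67 at E1, E4 and Ech), *Cspg5* at E4 (1.05) and *Ncan* at Ech (0.86) with astrocyte markers, and for *Cspg5* at Ech (-1.0) with OPC markers. With the supplement's names they turned for *Ncan* (0.18) and *Cspg5* (0.44) between forebrain GLASTpos and GLASTneg, for *Ncan* (-1.56) and *Bcan* (-1.44) between hindbrain GLASTpos and GLASTneg, and for *Ncan* (0.11), *Bcan* (0.092), *Cspg5* (-0.17), *Tnc* (-2.78) and *Ptprz1* (-0.72) between cord and hindbrain.

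The replicate number as a block gave 4, 7 and 5 changed genes in the cord at E1, E4 and Ech, 5 and 5 between stages and 6 between cord and GLASTpos controls, and the numbers do not pair the libraries, so the samples share only a number. Without the cord E1 library whose labels disagree, the count at E1 and that from E1 to E4 were 4 each. *Acan* and, in FVB/N, *Tnr* were close to the floor of 3 counts. The only call on them in the main test, *Acan* between cord and GLASTpos controls, was lost with a replicate block or without the filter. Elsewhere their counts were too low to show a difference.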
